A study of Homo sapiens with 12 samples.

Results

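The 10 genes described here handle metals, and they are 10 of the 60669 gene IDs in the count table. They were chosen by name for their links to zinc, copper and cisplatin, not by a rule on measured values. Earlier results of these data were known when they were chosen. They are 5 metallothionein genes (MT1E, MT1F, MT1G, MT1X and MT2A), the zinc exporter gene SLC30A1, the copper pump genes ATP7A and ATP7B, and the copper transporter genes SLC31A1 (CTR1) and SLC31A2 (CTR2). RNA-seq was done on 12 libraries from 6 established human cell lines, which the study calls ovarian cancer lines. Each was given 8 µM quinacrine (QC), an antimalarial drug, or the buffer as vehicle for 6 h. The lines form 3 isogenic families. HeyA8 was paired with HeyA8-MDR (labelled HeyA8_MDR), which the study's methods call carboplatin-resistant, SKOV3 with SKOV3-TR (labelled SKOV3_TR), called taxol-resistant, and OV2008 with C13 (labelled OV2008_C13), a cisplatin-resistant derivative of OV2008. GEO's labels call HeyA8, SKOV3 and OV2008 sensitive and the other 3 resistant, and the series' own design text speaks of platinum for all of them, although taxol carries no metal. The study's supplement lists DMEM as the medium of the HeyA8 family and RPMI for the SKOV3 and OV2008 families. Differences between the HeyA8 family and the others therefore cannot be told apart from medium. One library was made per line and treatment, so the lines served as the replicates, and in these bulk cultures fewer cells expressing a gene and less RNA per cell cannot be told apart.

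Metallothioneins are small cysteine-rich proteins that hold zinc and copper and can also bind cadmium and platinum. Their genes lie side by side on chromosome 16, and many of them are switched on by the zinc-sensing factor MTF1, which binds short metal response elements (MREs) in front of the start site. SLC30A1 carries zinc out across the plasma membrane and is itself a target of MTF1. ATP7A and ATP7B are ATP-driven pumps that load copper onto enzymes in the secretory pathway and export it, and SLC31A1 is the high-affinity copper importer, with SLC31A2 a related protein of internal membranes. All of these copper proteins have been studied for the uptake or export of cisplatin.

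RefSeq promoter sequences (GRCh38.p14) were at hand for 6 of the 10 members (MT1X, MT2A, SLC30A1, ATP7A, ATP7B and SLC31A1). The 250 bases before the start site were searched on both strands for the MRE core, TGCACNC or TGCGCNC, in which N is any base. The 4 stretches below are shown because they set the metallothionein promoter that gave the most reads beside a weaker one, one whose gene had no counts and that of the zinc exporter. They are MT2A (chr16:56608334-56608583, + strand), MT1X (chr16:56682220-56682469, + strand), MT1H, no member but a neighbour with 0 counts in all 12 libraries (chr16:56669564-56669813, + strand), and SLC30A1 (chr1:211579162-211579411, - strand). Capitals mark the MRE cores, and each sequence is written 5′ to 3′ on its gene's strand and ends just before the start site.
MT2A: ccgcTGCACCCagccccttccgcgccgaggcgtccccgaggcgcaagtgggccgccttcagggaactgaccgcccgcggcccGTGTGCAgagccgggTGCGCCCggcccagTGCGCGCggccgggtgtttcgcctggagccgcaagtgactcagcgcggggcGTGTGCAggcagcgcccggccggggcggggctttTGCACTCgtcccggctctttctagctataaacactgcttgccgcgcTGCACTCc
MT1X: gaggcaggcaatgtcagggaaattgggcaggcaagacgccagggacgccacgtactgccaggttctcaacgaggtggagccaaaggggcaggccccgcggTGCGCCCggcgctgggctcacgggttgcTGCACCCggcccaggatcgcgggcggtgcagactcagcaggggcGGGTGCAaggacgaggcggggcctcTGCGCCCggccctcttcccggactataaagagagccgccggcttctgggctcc
MT1H: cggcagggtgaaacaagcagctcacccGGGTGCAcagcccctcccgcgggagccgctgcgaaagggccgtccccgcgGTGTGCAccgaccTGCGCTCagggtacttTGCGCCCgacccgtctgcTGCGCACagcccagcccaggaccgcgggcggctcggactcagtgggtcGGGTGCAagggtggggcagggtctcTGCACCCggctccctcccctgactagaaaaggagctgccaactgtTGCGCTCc
SLC30A1: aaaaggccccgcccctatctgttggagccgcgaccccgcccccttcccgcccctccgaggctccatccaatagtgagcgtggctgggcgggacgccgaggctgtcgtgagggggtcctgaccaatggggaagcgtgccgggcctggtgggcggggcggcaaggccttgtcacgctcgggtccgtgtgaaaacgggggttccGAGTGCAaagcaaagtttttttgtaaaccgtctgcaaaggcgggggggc
The core was found 7 times for MT2A, 4 times for MT1X, 8 times for MT1H and once for SLC30A1. It was found 0 times for ATP7A and SLC31A1, and for ATP7B 2 times before 1 of its 3 annotated starts. Of all 35116 promoter entries, 24.8% held at least 1 core, 0.37% at least 4 and 0.0313% at least 7. A match is a run of letters and not a measured site, and the count of cores did not follow the level, since MT1H was not detected.

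Total counts lay between 17782556 and 30585059 per library, and levels are given as CPM, counts relative to a library size that was scaled by edgeR's TMM method. The HeyA8 library with QC stood apart from its label, and fitted QC effects are therefore also given without this line. The place of that library between the vehicle libraries of HeyA8 and HeyA8-MDR was taken on the CPM scale. Among 213 genes at least 8-fold higher in HeyA8-MDR, the library lay at the median 38.8% of the way to HeyA8-MDR. Among 187 genes at least 8-fold lower there, it lay 53.7% of the way. The HeyA8-MDR library with QC lay 30.5% of the way to HeyA8 among the 213 genes and 3.04% among the 187. In the lines of the SKOV3 and OV2008 families the same medians lay between -1.22% and 16.3%. As for the labelled tissue, PAX8, the Müllerian lineage factor, was at 254.7 to 479.6 CPM in the HeyA8 and SKOV3 families but at 7.56 to 24.8 CPM in OV2008 and C13. The epithelial genes EPCAM (182.8 to 245.8 CPM), KRT8 and KRT18 were highest in OV2008 and C13, while EPCAM was at most 52.8 CPM in the SKOV3 family and 2.92 CPM in the HeyA8 family. The squamous markers TP63 (108 to 329 CPM) and KRT5 (2550 to 11213 CPM) were found in OV2008 and C13, and KRT5 was also at 49.4 CPM with vehicle and 25.6 CPM with QC in SKOV3-TR. Low PAX8 beside squamous markers does not bear out the ovarian label of OV2008 and C13, whose origin was not tested. WT1 did not pass 4.79 CPM in any library. MUC16 was at most 0.296 CPM in the HeyA8 family and in SKOV3-TR, 0.926 to 2.35 CPM in the OV2008 family and up to 10.9 CPM in SKOV3. The leukocyte and erythroid markers PTPRC, CD3E, CD14, HBB and HBA1 did not pass 0.529 CPM anywhere. Of the fibroblast markers, COL1A1 reached 39.4 CPM in SKOV3-TR with QC and COL1A2 6.86 CPM in SKOV3 with vehicle, while DCN stayed at or under 0.681 CPM. Such markers thus differed between the families and within the SKOV3 family, where members differed too, and their part in the members' differences was not tested.

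Metallothionein RNA was most abundant in the HeyA8 family and least abundant in SKOV3. MT2A (ENSG00000125148.7), the main human isoform in most tissues, carried most of it. With vehicle it was at 668 CPM in HeyA8, 679 CPM in HeyA8-MDR, 18.0 CPM in SKOV3, 143 CPM in SKOV3-TR, 93.9 CPM in OV2008 and 164 CPM in C13. With QC the levels were 499, 318, 21.9, 381, 165 and 167 CPM in the same order. SKOV3 was thus the lowest line and stood far below its own partner SKOV3-TR, which in turn overlapped the OV2008 family. Both HeyA8 lines with vehicle lay above all 4 other vehicle libraries, but with QC SKOV3-TR passed HeyA8-MDR.

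MT1E (ENSG00000169715.15) was read in the HeyA8 family and almost nowhere else. It had 1855 counts in HeyA8 and 1649 in HeyA8-MDR with vehicle, and 1989 and 867 with QC, or 82.2, 85.7, 72.7 and 51.4 CPM. SKOV3 with vehicle had 2 counts, and the other 7 libraries had 0. Against a floor of 3 counts per library, which covers counting error only, the vehicle libraries of the HeyA8 family were at least 655-fold higher than those of the SKOV3 family and at least 489-fold higher than those of the OV2008 family. MT1L (ENSG00000260549.1), a neighbour that is no member, had the same distribution, with 573 to 913 counts in the 4 HeyA8-family libraries and at most 4 counts in the 8 others.

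MT1X (ENSG00000187193.9), a basally active isoform, was present in all the lines at lower levels. The vehicle libraries had 15.8 CPM in HeyA8, 35.2 CPM in HeyA8-MDR, 1.76 CPM in SKOV3, 3.81 CPM in SKOV3-TR, 6.95 CPM in OV2008 and 6.36 CPM in C13. With QC it was at 16.9, 18.8, 1.54, 6.79, 5.69 and 3.88 CPM in the same order. Both HeyA8-family lines were the highest with either treatment, and SKOV3 was the lowest line, as it was for MT2A.

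MT1F (ENSG00000198417.7) was close to the limit of detection. HeyA8 had 37 counts with vehicle and 15 with QC, while HeyA8-MDR had 0 in both libraries. The SKOV3 family had 0 and 1 counts in SKOV3 and 2 and 6 in SKOV3-TR (vehicle, then QC). OV2008 had 12 and 2 counts and C13 had 16 and 18. MT1F was therefore the only metallothionein member that was counted in HeyA8 but in neither HeyA8-MDR library. MT1G (ENSG00000125144.14) had 0 counts in all 12 libraries, and so did 6 of the 9 metallothionein genes outside the member list, MT1A, MT1H, MT1M, MT1HL1, MT1JP and MT4. MT1B had at most 3 counts, and the brain isoform MT3 had 2 counts in SKOV3 with vehicle alone.

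**Figure D1:**
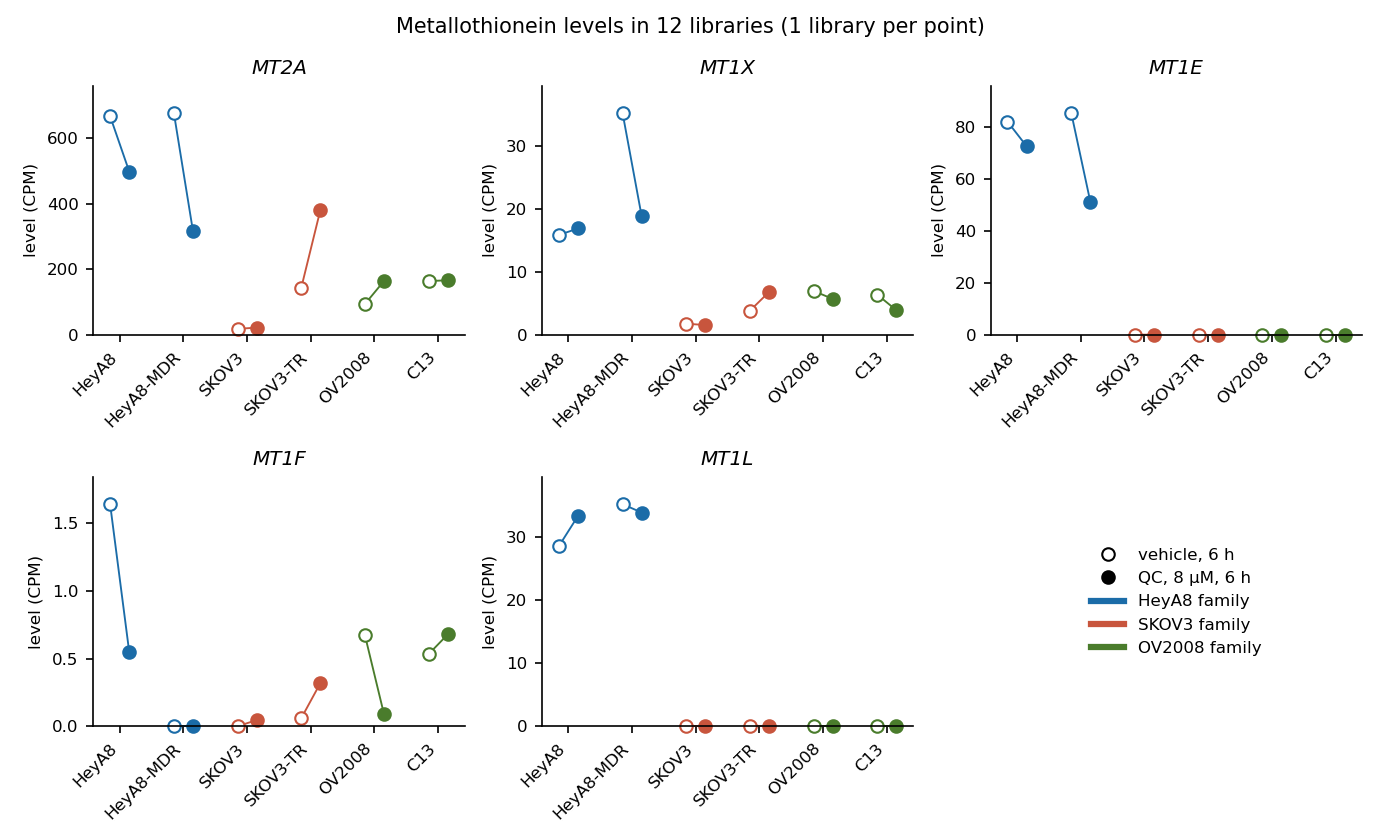
Levels of MT2A, MT1X, MT1E, MT1F and the neighbour MT1L, which is no member, in each of the 12 libraries by cell line. The axis is linear in CPM, and vehicle and QC libraries are separate points. MT2A is highest in HeyA8 and HeyA8-MDR with vehicle (668 and 679 CPM). MT1E is read in that family, with 2 counts in SKOV3 with vehicle as the exception. MT1G, at 0 throughout, is not drawn.

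The metallothionein genes are near-identical copies, and how reads that fit several of them were counted is not given in the sources used here, so the split between members is uncertain. The sum over the 5 members does not depend on a misassignment among them. It was 767.8 CPM in HeyA8, 799.8 CPM in HeyA8-MDR, 19.9 CPM in SKOV3, 147 CPM in SKOV3-TR, 101.5 CPM in OV2008 and 170.9 CPM in C13 with vehicle. With QC it was 589, 388, 23.5, 388, 170.4 and 171.2 CPM. With vehicle the lines ranked as they did for MT2A alone, and MT2A gave 81.9% to 98.2% of the sum. Per kilobase of annotated exons, MT2A made up 85.3% to 99% of the 5 members' total in every library, MT1X 0.934% to 4.88%, and MT1E 9.54% to 12% in the HeyA8 family. For MT2A (914 bases) and MT1X (1727 bases) the joined exons span the whole gene, introns included. These values are therefore not shares of spliced transcripts.

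The difference between the 3 families was tested on the 6 vehicle libraries with edgeR's quasi-likelihood F-test, in which the parent and resistant line of a family are its replicates. Of the 9 members tested (MT1G was not counted), 6 had an unadjusted p under 0.05 (MT1E, MT1X, MT2A, SLC30A1, ATP7B and SLC31A2), where 41.5% of all 18297 genes did. After Benjamini-Hochberg adjustment 2 of 9 passed, MT1E (adjusted p = 0.00225, edgeR) and MT1X (adjusted p = 0.0297, edgeR), where 24.5% of all genes did. For MT1X the fitted difference between the HeyA8 family, the highest, and the SKOV3 family, the lowest, was 3.18 on the log2 scale. The neighbour MT1L passed too (adjusted p = 0.00213, edgeR). For MT2A the same fitted difference was 3.04 and the adjusted p 0.058 in edgeR's test, and the spread between SKOV3 and SKOV3-TR entered that estimate. Differences between families were thus common among all genes of these lines, and the members' share after adjustment was near that background. The HeyA8 family also had another culture medium than the other families, which this test cannot separate from family.

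The call for MT1X was lost when any one of HeyA8 (adjusted p = 0.0524), HeyA8-MDR (0.15), OV2008 (0.091) or C13 (0.0976) was left out of the edgeR fit, which leaves a family with 1 library that is assumed to vary like the others. It was also lost with scaling to RPLP0 (adjusted p = 0.122, edgeR) and in the QC libraries (0.0824). MT1E kept its call without each line. MT2A gained one without SKOV3 (adjusted p = 0.00367, edgeR) or SKOV3-TR (0.000992), the lines that differ most within a family, and in the 6 QC libraries its fitted difference between those families was 1.01 (adjusted p = 0.512, edgeR).

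MT2A moved with QC in opposite directions in the HeyA8 family and in the others. QC over vehicle, on the log2 scale with a prior count of 2, was -0.42 in HeyA8 and -1.09 in HeyA8-MDR. It was 0.28 in SKOV3 and 1.41 in SKOV3-TR, and 0.81 in OV2008 and 0.02 in C13. Both HeyA8-family lines were lower with QC and both lines of the other families were higher, though C13 hardly differed. The HeyA8 family was also the one grown in DMEM, so family and medium cannot be told apart here. As folds, MT2A with QC was at 0.468 of its vehicle level in HeyA8-MDR and 2.66-fold higher in SKOV3-TR. A test of whether the QC effect differed between families, added after the values had been seen, passed an unadjusted 0.05 for MT2A, though its adjusted p = 0.223 (edgeR) did not. Without HeyA8, which leaves HeyA8-MDR alone in its family, the same fit gave MT2A -1.09, 0.88 and 0.41 in the HeyA8, SKOV3 and OV2008 families (adjusted p = 0.0633, edgeR). The single QC effect over the 6 lines was 0.17 (SE 0.26, adjusted p = 0.802, edgeR), and without SKOV3-TR it was -0.09.

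MT1X showed no shared direction either, with 2 lines higher and 4 lower with QC. The log2 ratio was 0.09 in HeyA8, -0.90 in HeyA8-MDR, -0.18 in SKOV3, 0.82 in SKOV3-TR, -0.28 in OV2008 and -0.70 in C13. The largest departures for MT1X and MT2A came from the same pair of lines, HeyA8-MDR, lower, and SKOV3-TR, higher. MT1E was at 0.885 of its vehicle level in HeyA8 and 0.6 in HeyA8-MDR, and the fits over all lines (-0.50, SE 0.278, adjusted p = 0.427 in edgeR's test) rest on that family. The summed level of the 5 members with QC over vehicle was 0.767 in HeyA8, 0.485 in HeyA8-MDR, 1.18 in SKOV3, 2.64 in SKOV3-TR, 1.68 in OV2008 and 1 in C13. No metallothionein member had an unadjusted p under 0.05 for QC in edgeR's test over all lines, and their median log2 effect was -0.31 over the 4 tested, beside 0.000101 over all genes.

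By resistance label, MT2A differed most within the SKOV3 family, whose drug is taxol. SKOV3-TR was 7.91-fold above SKOV3 with vehicle and 17.3-fold above it with QC. C13 was 1.75-fold above OV2008 with vehicle but 1.01-fold with QC, and HeyA8-MDR was 1.02-fold above HeyA8 with vehicle and at 0.637 of it with QC. In the 2 families whose resistance is to a platinum drug, MT2A therefore differed by less than 2-fold with either treatment. MT1X was 2.22-fold higher in HeyA8-MDR and 2.12-fold higher in SKOV3-TR with vehicle, and C13 was at 0.916 of OV2008. Over the 3 vehicle pairs the edgeR fit gave 1.23 for MT2A (SE 0.63, adjusted p = 0.975) and 0.73 for MT1X (SE 0.486, adjusted p = 0.975), on the log2 scale.

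SLC30A1 (ENSG00000170385.10), the zinc exporter, showed the reverse order of SKOV3 and SKOV3-TR. The vehicle libraries had 40.2 CPM in HeyA8, 70.2 CPM in HeyA8-MDR, 234.5 CPM in SKOV3, 55.7 CPM in SKOV3-TR, 30.8 CPM in OV2008 and 45.3 CPM in C13. With QC it was at 75.2, 91.3, 161, 62.1, 45.5 and 69.1 CPM. SKOV3 was the highest library with either treatment, and the other 5 lines overlapped between families. SKOV3 was 4.21-fold above SKOV3-TR with vehicle and 2.59-fold with QC, whereas the resistant line was higher in the HeyA8 (1.74-fold) and OV2008 (1.47-fold) families with vehicle. Over the pairs the difference was -0.17 on the log2 scale (SE 0.638, adjusted p = 0.986, edgeR).

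QC went with more SLC30A1 RNA in every line except SKOV3. The log2 ratio was 0.90 in HeyA8, 0.38 in HeyA8-MDR, 0.16 in SKOV3-TR, 0.56 in OV2008 and 0.61 in C13, against -0.54 in SKOV3. The effect over all lines was 0.35 (SE 0.166, adjusted p = 0.346, edgeR). Without SKOV3 it was 0.52, which passed an unadjusted 0.05 (adjusted p = 0.12, edgeR), and without HeyA8 it was 0.23 (adjusted p = 0.624, edgeR). It also passed an unadjusted 0.05 with scaling to RPLP0 (0.53, adjusted p = 0.171, edgeR) and without a filter on low counts (0.34, adjusted p = 0.318, edgeR). The line with the most SLC30A1 RNA, SKOV3, had the least metallothionein RNA with either treatment, and over the 12 libraries SLC30A1 and MT2A had a Pearson r of -0.592 in log2 CPM, a description over libraries that share lines.

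**Figure D2:**
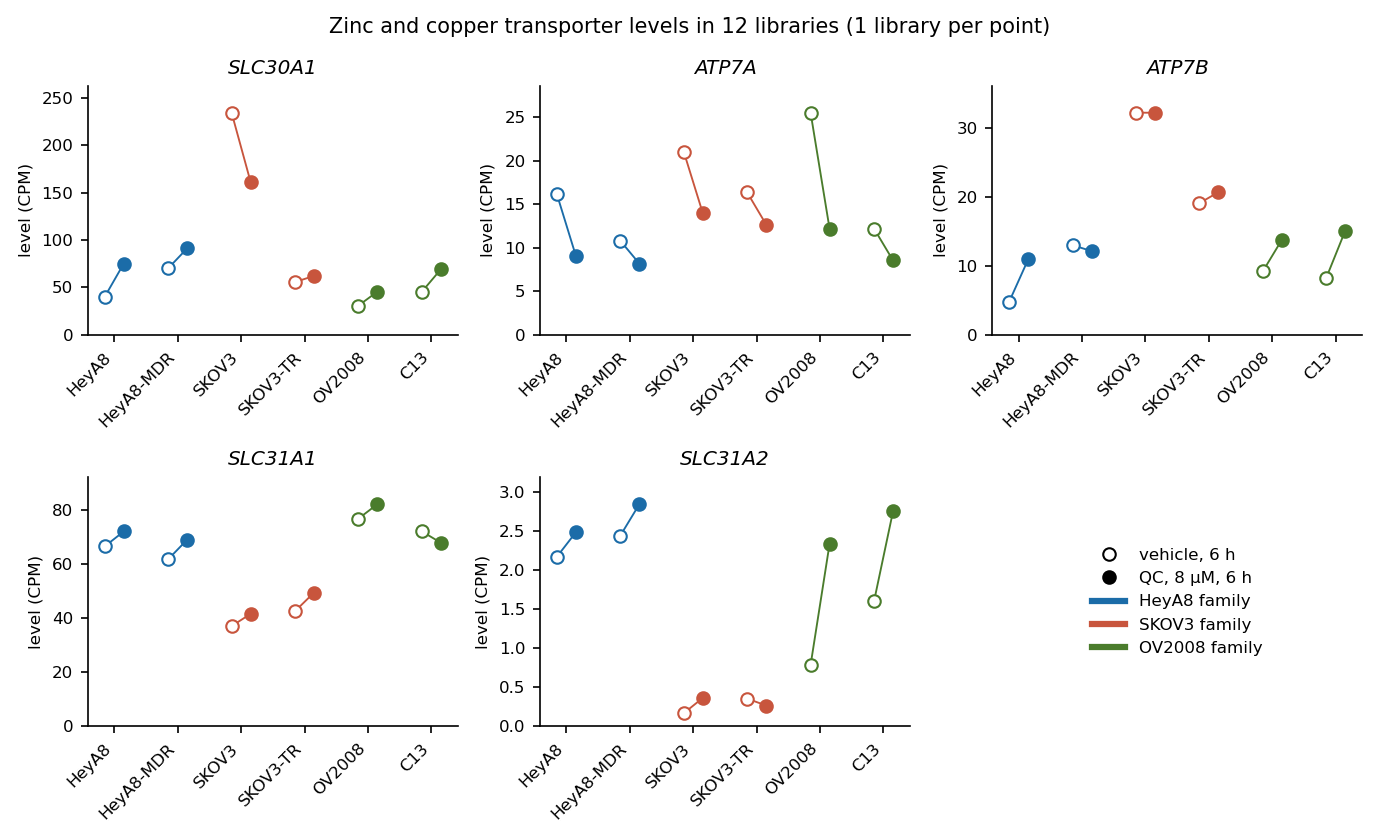
Levels of SLC30A1, ATP7A, ATP7B, SLC31A1 and SLC31A2 in each of the 12 libraries by cell line. The axis is linear in CPM, and vehicle and QC libraries are separate points. SLC30A1 peaks in SKOV3 (234.5 CPM with vehicle), ATP7A is lower with QC in each of the 6 lines, and SLC31A1 stays between 37.1 and 82.3 CPM.

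ATP7A (ENSG00000165240.20), the copper pump that is mutated in Menkes disease, was the member that was lower with QC in all 6 lines. With vehicle it was at 16.1 CPM in HeyA8, 10.8 CPM in HeyA8-MDR, 21.0 CPM in SKOV3, 16.4 CPM in SKOV3-TR, 25.5 CPM in OV2008 and 12.2 CPM in C13. With QC it was at 9.03, 8.17, 14.0, 12.7, 12.2 and 8.55 CPM in the same order. Every line was lower with QC, although the vehicle and QC groups overlapped across lines. The log2 ratios were -0.83 in HeyA8, -0.40 in HeyA8-MDR, -0.59 in SKOV3, -0.37 in SKOV3-TR, -1.06 in OV2008 and -0.51 in C13. ATP7A was 1 of 9 members that moved in one direction in all 6 lines, where 8.73% of all 18720 genes tested did.

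Over the 6 lines ATP7A was lower by a log2 of -0.63 with QC (SE 0.152), which had an unadjusted p under 0.05 but did not pass adjustment over 18720 genes (adjusted p = 0.149, edgeR). It did pass in edgeR without a filter on low counts (adjusted p = 0.0423) and in DESeq2 (adjusted p = 0.00979). Without HeyA8 the value was -0.59 (adjusted p = 0.266, edgeR), and over the 6 fits that each left out a line it lay between -0.69 and -0.54. In sensitive lines the effect was -0.83 (SE 0.219, adjusted p = 0.606, edgeR), also -0.83 without HeyA8 (adjusted p = 1, edgeR), and in resistant lines -0.43 (SE 0.22, adjusted p = 0.823, edgeR). The difference between them, 0.40 (SE 0.31), had an adjusted p of 1 in edgeR's test, and so a larger response in sensitive lines was not shown.

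With vehicle, each resistant line had less ATP7A RNA than its parent. HeyA8-MDR was at 0.671 of HeyA8, SKOV3-TR at 0.779 of SKOV3 and C13 at 0.48 of OV2008. The fitted difference was -0.66 on the log2 scale (SE 0.38, adjusted p = 0.975, edgeR). With QC the same 3 ratios were 0.906, 0.906 and 0.705. Each pair was thus closer together with QC. Between families the F-test on vehicle libraries gave ATP7A an adjusted p = 0.704 (edgeR), which does not show the families to be alike.

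ATP7B (ENSG00000123191.16), the Wilson disease copper pump, followed another pattern. With vehicle it was at 4.79 CPM in HeyA8, 12.99 CPM in HeyA8-MDR, 32.2 CPM in SKOV3, 19.1 CPM in SKOV3-TR, 9.19 CPM in OV2008 and 8.22 CPM in C13. With QC it was at 10.9, 12.1, 32.2, 20.7, 13.8 and 15.1 CPM. The SKOV3 family was highest with both treatments, and the other 2 families overlapped with vehicle. Log2 ratios of QC to vehicle were 1.18 for HeyA8, 0.87 in C13 and 0.58 in OV2008, then 0.12 in SKOV3-TR, -0.10 in HeyA8-MDR and -0.000658 in SKOV3. The 3 lines with the lowest vehicle levels had the 3 largest ratios, but the vehicle level is the denominator of the ratio, so level and ratio are not independent.

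Over all lines the QC effect on ATP7B was 0.43, with an unadjusted p under 0.05 (SE 0.188, adjusted p = 0.304, edgeR). It did not reach an unadjusted 0.05 without HeyA8 (0.29), without OV2008 (0.41) or without C13 (0.33) in the same edgeR test, with adjusted p-values of 0.526 to 0.556. HeyA8 with QC had 2.26-fold the ATP7B of its vehicle library, and its level of 10.9 CPM was below the 12.99 CPM of HeyA8-MDR with vehicle. This QC library is the one that stood apart from its label, and any part of that in the ATP7B value was not tested. HeyA8-MDR was 2.68-fold above HeyA8 with vehicle and 1.11-fold with QC. The other resistant lines were below or close to their parents, at 0.593 of SKOV3 and 0.896 of OV2008, and the fit over the vehicle pairs gave 0.16 on the log2 scale (SE 0.556, adjusted p = 0.986, edgeR), which turned to -0.26 with scaling to RPLP0.

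SLC31A1 (ENSG00000136868.11), the main copper importer, varied least among the members. The vehicle libraries had 66.7 CPM in HeyA8, 61.9 CPM in HeyA8-MDR, 37.1 CPM in SKOV3, 42.6 CPM in SKOV3-TR, 76.9 CPM in OV2008 and 72.2 CPM in C13. With QC it was at 72.2, 69.1, 41.6, 49.5, 82.3 and 68.0 CPM. The families ranked OV2008, HeyA8 and SKOV3 with vehicle and did not overlap there (F-test adjusted p = 0.157, edgeR), and with QC C13 lay just under both HeyA8 lines. QC over vehicle lay between 0.941 in C13 and 1.16-fold in SKOV3-TR, and the fitted effect was 0.11 (SE 0.105, adjusted p = 0.652, edgeR). Resistant over sensitive was 0.928 in the HeyA8 family, 1.15 in the SKOV3 family and 0.939 in the OV2008 family, a fitted 0.01 on the log2 scale (SE 0.273, adjusted p = 0.998, edgeR) that was -0.42 with scaling to RPLP0.

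SLC31A2 (ENSG00000136867.11), the SLC31A1-related gene, was much less abundant. It was at 2.17 and 2.49 CPM in HeyA8, 2.44 and 2.84 CPM in HeyA8-MDR, and 0.167 and 0.363 CPM in SKOV3 (vehicle, then QC). SKOV3-TR had 0.354 and 0.265 CPM, OV2008 0.784 and 2.34 CPM, and C13 1.6 and 2.75 CPM. The order of families with vehicle was HeyA8, OV2008 and SKOV3, with only 4 to 12 counts in the SKOV3 family. QC went with a higher level in 5 of 6 lines, most in OV2008 (14 against 53 counts), and SKOV3-TR was the exception at 12 against 5 counts. The effect was 0.58 (SE 0.328, adjusted p = 0.425, edgeR), and the vehicle levels of resistant lines were higher by 0.73 (SE 0.636, adjusted p = 0.975, edgeR), both on the log2 scale.

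**Figure D3:**
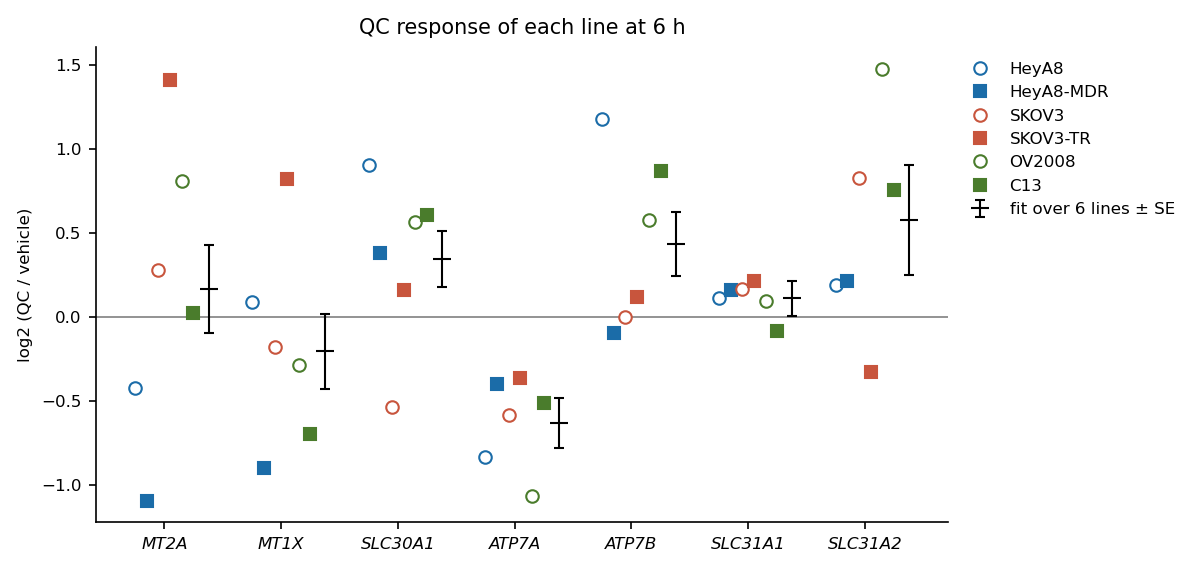
QC over vehicle on the log2 scale (prior count of 2) for MT2A, MT1X, SLC30A1, ATP7A, ATP7B, SLC31A1 and SLC31A2. Each gene has 1 point for each of the 6 cell lines, and a bar gives the fit over the lines with its SE. The tested members MT1E and MT1F are not drawn. ATP7A lies below 0 in 6 of 6 lines, while MT2A runs from -1.09 in HeyA8-MDR to 1.41 in SKOV3-TR.

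Counted over the members, QC over all lines gave an unadjusted p under 0.05 for 2 of 9, ATP7B up and ATP7A down, where 15.2% of all 18720 genes passed (2840). None passed adjustment, nor did any other gene in this edgeR fit, and its smallest adjusted p was 0.123. DESeq2, an alternative, called 518 genes, with ATP7A among them, and without HeyA8 edgeR gave an unadjusted p under 0.05 for 1 of 9 members, ATP7A. In the sensitive lines 1 of 9 members (ATP7A) had p under 0.05 against 6.59% of all genes, in the resistant lines 0 of 9 against 6.03%, and for the difference between them 0 of 9 against 1.16%. With scaling to RPLP0 the call in sensitive lines passed from ATP7A (-0.56, adjusted p = 0.437, edgeR) to ATP7B, which was higher with QC by 0.86. The members' share was therefore close to the background in each of these comparisons. Their median log2 effect of QC over all lines was 0.11, beside 0.000101 over all genes. Without HeyA8 the effects for the members not yet given that way were 0.29 for MT2A, -0.27 for MT1X, -0.81 for MT1E, 0.10 for MT1F, 0.11 for SLC31A1 and 0.68 for SLC31A2, with edgeR adjusted p-values of at least 0.477. MT1F had -0.42 with HeyA8 (SE 0.749, adjusted p = 0.829, edgeR), so its sign turned.

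Between resistant and sensitive lines with vehicle, 0 of the 8 members tested passed an unadjusted 0.05, where 3.77% of all 16091 genes did (606), and the smallest adjusted p of any gene was 0.975 in edgeR's test. DESeq2 gave p under 0.05 for 1 of 8 members, MT2A (adjusted p = 0.715). Without the HeyA8 family MT2A had 1.90 and passed an unadjusted 0.05 (adjusted p = 0.999, edgeR), and without the SKOV3 family 0.43 (adjusted p = 1, edgeR). By size, 3 of 9 members differed at least 2-fold within the HeyA8 family (MT1X and ATP7B higher in HeyA8-MDR, MT1F lower), beside 29.5% of all genes. In the SKOV3 family it was 3 of 9 (MT1X and MT2A higher in SKOV3-TR, SLC30A1 lower), beside 33.1%, and in the OV2008 family 1 of 9 (ATP7A, lower in C13), beside 21.3%. MT1X was the single member past 2-fold in the same direction in 2 families, and none was in all 3.

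**Figure D4:**
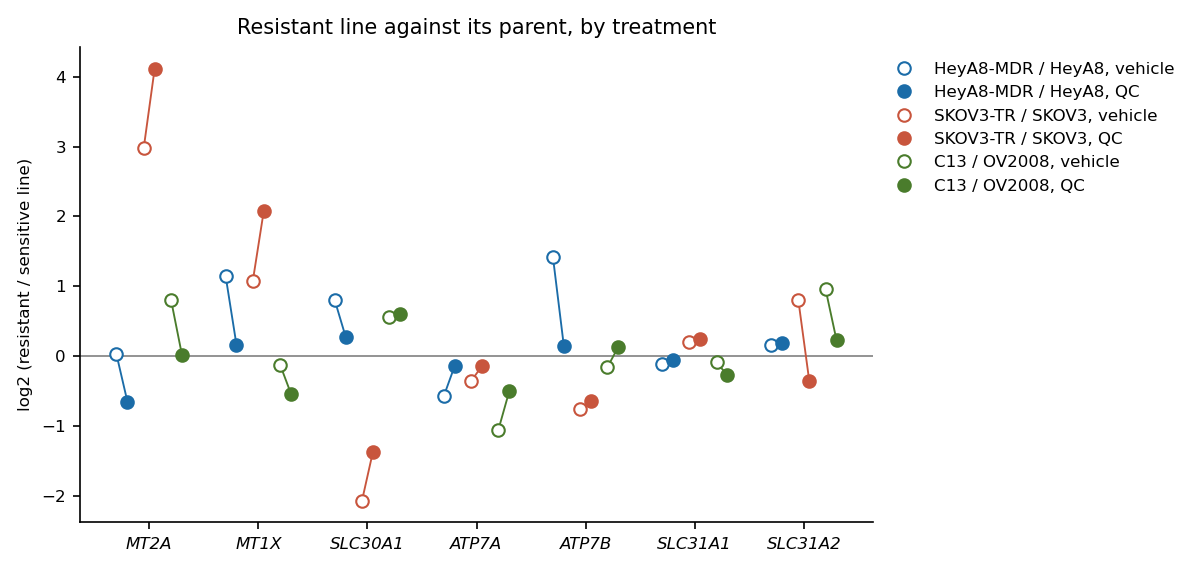
Resistant over sensitive line on the log2 scale (prior count of 2) for MT2A, MT1X, SLC30A1, ATP7A, ATP7B, SLC31A1 and SLC31A2. Each gene has 1 point per family and treatment. MT1E, MT1F and MT1G are not drawn. Among the genes drawn, MT2A and SLC30A1 depart furthest with vehicle, both in the SKOV3 family, at 2.98 and -2.07. ATP7A lies below 0 in all 3 families. MT1F, close to the limit of detection, was at -4.34 in the HeyA8 family with vehicle.

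Some members had like profiles over the 12 libraries, given as Pearson's r of log2 CPM and as a description, since libraries of a line and of a family are not independent. The highest values were 0.897 for MT1X with MT2A, 0.848 for SLC31A1 with SLC31A2, 0.829 for MT1E with MT1X and 0.776 for SLC30A1 with ATP7B. ATP7A and ATP7B were not alike (0.086). Among all genes tested, the closest to MT2A were PNP (0.972), PRSS23, CCN1, ARHGAP6 and MB21D2 (0.953). Closest to SLC30A1 were CRBN (0.951), BMAL1, SEC31B, CCDC93 and GUCY1B2 (0.937), and closest to ATP7B were BEAN1 (0.954), C2orf72, IER5L, EXTL3-AS1 and KIFC2 (0.942).

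Among other genes of the same pathways, 6 of the 39 tested had an unadjusted p under 0.05 for QC over all lines (15.4%), a share near the 15.2% of all genes, and none passed adjustment. MTF1, the zinc sensor that drives metallothionein genes, was at 30.0 to 58.2 CPM in every library and had a QC effect of -0.13 on the log2 scale (SE 0.126, adjusted p = 0.661, edgeR), or -0.0942 without HeyA8 and 0.0536 with scaling to RPLP0. It was therefore present in lines with high and with low metallothionein RNA, and between families it had an F-test adjusted p of 0.334 (edgeR). Its mean vehicle level was 51.32 CPM in the HeyA8 family, 39.88 CPM in the SKOV3 family and 32.75 CPM in the OV2008 family. The log2 ratio of QC to vehicle was -0.31 in HeyA8, -0.57 in HeyA8-MDR and between -0.03 and 0.10 in the other lines. A link to the metallothionein levels was not tested. Of 9 other zinc exporter genes, 6 were tested and 1 had an unadjusted p under 0.05, SLC30A9 (0.31, SE 0.119, adjusted p = 0.251, edgeR), with SLC30A4 next (-0.37, adjusted p = 0.476). SLC30A9 had 0.38 without HeyA8 and fell short of an unadjusted 0.05 without HeyA8-MDR (0.25), SKOV3-TR (0.27), OV2008 (0.28) or C13 (0.29), and SLC30A4 had -0.18 without HeyA8. Of 14 zinc importer genes, 11 were tested and 3 passed that level, 1 higher and 2 lower with QC. SLC39A10 was higher by 0.46 (SE 0.137, adjusted p = 0.176, edgeR) and SLC39A11 lower by a log2 of -0.48 (SE 0.171, adjusted p = 0.219, edgeR). Without HeyA8 they had 0.46 and -0.53. SLC39A11 fell short of an unadjusted 0.05 without SKOV3 (-0.37) or OV2008 (-0.40) and with scaling to RPLP0 (-0.31).

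Of 11 genes for copper chaperones and reductases, 10 were tested and 1 passed the unadjusted level. COX11, which helps deliver copper to cytochrome c oxidase, was higher by 0.41 with QC (SE 0.121, adjusted p = 0.176, edgeR), and COX17, the chaperone of the same enzyme, had 0.35 (adjusted p = 0.338, edgeR). Without HeyA8 these values were 0.35 for COX11 and 0.37 for COX17, and COX17 ranged from 0.20 without SKOV3-TR to 0.54 with scaling to RPLP0 (adjusted p = 0.137, edgeR). Of 12 other genes linked to platinum transport, 11 were tested and 1 passed, LRRC8B, a subunit of the volume-regulated anion channel (-0.53, SE 0.216, adjusted p = 0.277, edgeR), with LRRC8D next (-0.18, adjusted p = 0.538, -0.15 without HeyA8, and 0.00489 with scaling to RPLP0). LRRC8B fell short of an unadjusted 0.05 without HeyA8 (-0.39), without HeyA8-MDR (-0.38) and with scaling to RPLP0 (-0.34).

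In the resistant against sensitive comparison ABCC2 (MRP2), an export pump for drug conjugates, was the single one of these genes with an unadjusted p under 0.05. With vehicle it was at 3.46 CPM in HeyA8 and 11.6 CPM in HeyA8-MDR, 1.13 and 54.4 CPM in SKOV3 and SKOV3-TR, and 5.1 and 85.3 CPM in OV2008 and C13. It was higher in the resistant line of all 3 pairs, by a fitted 3.82 on the log2 scale (SE 0.853, adjusted p = 0.975, edgeR), a larger difference than that of any member. With QC the resistant line was 101.5-fold above its parent in the SKOV3 family and 16.77-fold in the OV2008 family. In the HeyA8 family it was only 1.17-fold above it. The next genes by p with vehicle, each short of an unadjusted 0.05 and with an adjusted p = 0.975 in edgeR's test, were SLC47A2 (-2.41) among platinum carriers, SLC30A3 (3.33) and SLC30A6 (-0.44) among zinc exporters, SLC39A1 (0.98) and SLC39A7 (0.32, and -0.10 with scaling to RPLP0) among zinc importers, and CCS (0.63) and SCO1 (-0.42) among copper chaperones. The SKOV3 pair dominated 2 of these fits. Resistant over sensitive for SLC30A3 was 83.96 there, 1.61 in the HeyA8 family and 1.01 in the OV2008 family. For SLC47A2 it was 0.0384, 1.09 and 0.366 in the same order. Both genes averaged under 0.1 CPM in the HeyA8 family.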

How the data were processed

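RNA-seq libraries were made with the TruSeq RNA kit from poly(A) RNA. The deposited values are raw counts per gene, which the authors made with HTSeq and did not normalize. The paper's methods name TopHat and hg19 for the alignment, whereas the submitters' processing notes name STAR 2.7.3a, HTSeq 0.6.1p1 and GRCh38.p13. The annotation, strand setting and treatment of reads that fit several genes are not given in the sources used here. Because the genes of the metallothionein cluster resemble each other, that treatment could change their counts. Depth lay between 17782556 and 30585059 counts per library, and counting intervals and floors cover counting error only. Columns of no sample numbered 0.

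Symbols were paired by Ensembl ID without version for 58620 of 60669 IDs, which hold 99.87% of the counts. The tests were run on the counts by edgeR 4.0.16 under R 4.3.3 (filterByExpr with minimum count 10 and minimum total 15, TMM scaling, quasi-likelihood tests, Benjamini-Hochberg adjustment over all genes tested, two-sided), with DESeq2 1.42.0 as an alternative. QC effects were fitted on all 12 libraries with a term per cell line, once as 1 effect and once for each resistance group (18720 genes). Resistance was fitted on the 6 vehicle libraries with a term per family (16091 genes), and families were compared by an F-test on the same libraries (18297 genes). Values per line are log2 ratios of CPM with a prior count of 2. Deviations from the group means correlated at 0.893 to 0.929 between both libraries of a line and at 0.695 to 0.763 between the vehicle libraries of a family, and the pairing comes from the shared line or family. Each line has 1 library per treatment, so p-values measure the spread between lines.

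The members, gene lists and tests were chosen with earlier results of these data known. All 10 members are described. From each other list the genes named are the pair with the smallest p for QC over all lines and the pair with the smallest p for resistance, plus MTF1, metallothionein genes with any count, the cell type markers and the 5 genes most correlated with each of MT2A, SLC30A1 and ATP7B. Alternatives were the fit without the line or family term, DESeq2, 3 other scalings (DESeq2 size factors, library size, RPLP0), 2 other filters (any count, at least 10 counts in every library), QC in place of vehicle libraries, fits on 6 libraries, and leaving out each line or family. QC effects per family, with and without HeyA8, were added after the data had been seen. Fitting scripts were tested on simulated data.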

Additional observations from a re-analysis of the deposited data

Results flagged for a closer look

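MT2A was flagged because lines of different families moved in opposite directions with QC. The fitted QC effect on the log2 scale was -0.76 in the HeyA8 family, 0.87 in the SKOV3 family and 0.41 in the OV2008 family. Both HeyA8-family lines were lower with QC and all 4 lines of the other families were higher, C13 by 0.02 alone. The HeyA8 family also differed from the others in culture medium, and the part of medium was not tested. The difference between families was tested with a QC effect for each family, a fit chosen after the data had been seen, and passed an unadjusted 0.05 but not adjustment (adjusted p = 0.223) in edgeR's quasi-likelihood test over 18720 genes. In that fit 2614 genes had an unadjusted p under 0.05 and 0 passed adjustment. Without HeyA8, which leaves that family with 1 line, MT2A had an adjusted p = 0.0633 in edgeR's test, and 348 of 19890 genes passed adjustment. SLC30A1, with 0.64 in the HeyA8 family, -0.19 in the SKOV3 family and 0.59 in the OV2008 family, passed the same level, with an adjusted p = 0.311 in the same edgeR fit. Over the 6 log2 ratios of each tested member, no single line was set apart from the rest. Groups of 3 lines were too small for that check.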

How the results depend on the processing

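The fitted values of single genes kept their sign and their side of the threshold in 537 of the 581 alternative fits of printed values, turned sign in 21, gained a call in 17 and lost one in 6. Without the term for line or family (no block for the pairing), 1 of 9 members had p under 0.05 for QC over all lines (2 with the term) and 0 in sensitive lines (1), the QC effect on MT2A was -0.19, and resistant over sensitive was -0.18 for ATP7B and -0.0275 for SLC31A1. That fit called 117 genes for QC over all lines (2840 with the term), 30 in sensitive lines (1234), 23 in resistant lines (1128), 6 for their difference (217) and 104 for resistance (606). The block changed no other call on a member. DESeq2 called 1 member after adjustment for QC over all lines (ATP7A, with 518 genes called), 6 between families (6910 genes, against 4483) and 1 at an unadjusted 0.05 for resistance (1058 genes, 41 after adjustment), where SLC31A1 had -0.000367 and, with DESeq2 size factors in edgeR, -0.000272. Without a filter edgeR called 1 member for QC after adjustment (ATP7A, with 791 genes), 2 in sensitive lines at an unadjusted 0.05 (1918 genes, 195 after adjustment), 4 between families after adjustment (7559 genes) and 1 for resistance (1583 genes, 146 after adjustment), and 501 genes for the difference of QC effects (5 after adjustment). After adjustment DESeq2 called 31 genes in sensitive lines, 0 in resistant lines (1093 at an unadjusted 0.05; 35 without a filter in edgeR) and 1 for their difference, where the edgeR fits with the filter called 0. With a family term in that difference it was 438 genes, and with 10 counts or more in each library 120 genes there and 2781 between families after adjustment. Library size alone left 1 member for QC over all lines. Scaling to RPLP0 moved the median of all genes by 0.183 for QC and by -0.426 for resistance, so changes are best read relative to that: QC on MTF1 was then 0.0536 and on LRRC8D 0.00489, resistant over sensitive was -0.26 for ATP7B, -0.42 for SLC31A1 and -0.10 for SLC39A7, MTF1 between families was -0.20, and 1 member passed for resistance (1408 genes). RPLP0 scaling called ATP7B in place of ATP7A and 2191 genes in sensitive lines at an unadjusted 0.05 and 6811 between families after adjustment. In QC in place of vehicle libraries, resistant over sensitive was -0.11 for ATP7B and -0.0212 for SLC31A1.

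Leaving out 1 line at a time, members with p under 0.05 ranged from 1 to 3 for QC over all lines, 1 to 3 in sensitive lines, 0 to 1 in resistant lines, 0 to 1 for their difference, and 3 to 6 between families (1 to 4 after adjustment). Leaving out 1 family, they ranged from 0 to 1 for resistance. QC effects ranged from -0.96 to 0.17 for MT1F and from -0.0853 (without SKOV3-TR) to 0.40 (without HeyA8-MDR) for MT2A. Resistant over sensitive ranged from -2.44 to 0.39 for MT1F, -0.76 to 0.70 for SLC30A1, -0.46 to 0.65 for ATP7B and -0.0825 to 0.0832 for SLC31A1, and MT1F between families from -2.91 to 7.26. The cause of these changes was not tested. MT1F and SLC31A2 are limited by depth, with 0 to 37 and 4 to 73 counts per library.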
